A study of Homo sapiens with 18 samples.

Results

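The 33 genes described here are direct targets of the transcription factor p53, taken as a list of symbols and matched to Ensembl identifiers; the rule itself uses no measured value. They are 33 of the 63677 gene identifiers in each count table, and all 33 passed the filter on low counts that left 21028 genes for testing. By role, 3 regulate p53 itself, 12 act in apoptosis, 6 in cell cycle and growth arrest, 4 in DNA repair and nucleotide supply and 7 in metabolism, redox control and autophagy, and GDF15 is secreted. RNA was sequenced from 3 human pancreatic ductal adenocarcinoma lines, COLO357, SUIT2 and PANC1, transfected for 48 h. Each line gave 3 KMT2C libraries (siRNA1, siRNA2 and siRNA3), 2 KMT2D libraries (siRNA1 and siRNA2) and 1 Control siRNA library, 18 in all. KMT2C and KMT2D encode histone methyltransferases that mark enhancers, and the question was how the loss of either changes gene expression. The lone control library of a line serves every comparison in that line, so those comparisons share it. Whether the libraries stem from separate cultures is not stated, so some of the library-to-library spread behind a p-value may be technical. In the fits by target that spread lies between the siRNAs of a target and between lines. In the fits by single siRNA it lies between the 3 lines, and in the test of differing effects between siRNAs within a line.

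In cells with DNA damage or other stress, p53 is stabilised, binds a pair of half-sites in DNA and raises transcription of genes that halt the cell cycle, repair DNA, remodel metabolism or start apoptosis. Among the targets is MDM2, the ubiquitin ligase that sends p53 for degradation, which closes a feedback loop. Several of the targets can also be raised without p53, by the p53 relatives p63 and p73 or by the stress-response factor ATF4.

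The promoter windows below are shown because they carry the p53 half-site consensus in members that the results return to. RefSeq windows (GRCh38.p14, 250 bases before to 50 after a gene start) were matched for 27 members, in 39 windows. A half-site was present in 7 of the 27 (25.9%), against 8.06% of 27305 genes with a window, and a full site (a pair of half-sites with at most 13 bases between them) in DDB2 alone, against 0.0366% of genes. The motif reads as itself on both strands, and capitals mark it. DDB2 lies at chr11:47214975-47215003 on the plus strand, SESN1 at chr6:109009018-109009047 on the minus strand, FAS at chr10:88991299-88991328 on the plus strand, PLK2 at chr5:58460199-58460228 on the minus strand and FDXR at chr17:74872986-74873015 on the minus strand.
DDB2: gtttGAACAAGCCCtGGGCATGTTTggcg
SESN1: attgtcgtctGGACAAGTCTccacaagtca
FAS: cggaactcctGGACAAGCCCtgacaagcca
PLK2: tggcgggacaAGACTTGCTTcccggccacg
FDXR: gggcaggagcGGGCTTGCCCtgcggagcag
AEN and RPS27L also held a half-site. A match describes the letters in the window and does not show binding, and well-known p53 sites of several members lie further from the start, in introns.

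Depth was 14205640 to 32115894 gene counts per library. KMT2C mRNA was below control in 8 of 9 KMT2C siRNA libraries (43.2% to 82.1% of control). It lay at 116% of control in the library labelled PANC1 KMT2C siRNA2, whose KMT2D mRNA was at 372%. In the other KMT2C siRNA libraries KMT2D mRNA was at 99.1% to 208% of control. In the KMT2D siRNA libraries KMT2C mRNA was at 92.7% to 274%, highest with PANC1 KMT2D siRNA2. KMT2D mRNA was below control in 6 of 6 KMT2D siRNA libraries (34.8% to 84.7%), and was at 79.9% and 84.7% in those of PANC1. Read pairs in no annotated feature exceeded 20% in COLO357 KMT2C siRNA3 (30.36%), SUIT2 KMT2C siRNA3 (22.2%) and SUIT2 KMT2C siRNA2 (24.99%). The share averaged 17.2% ± 7.17 (SD, n = 9) in KMT2C libraries, 11.1% ± 1.64 (n = 6) in KMT2D libraries and 12.8% ± 4.72 (n = 3) in control libraries. These 3 libraries and PANC1 KMT2C siRNA2 are called the 4 libraries in doubt. Calls of members that ended without them are named below with their values. Epithelial markers were present in every library, among them KRT8 at 323 CPM or more (CPM is the gene's count scaled to the library's total, not per length). All 5 were below control with KMT2C siRNA (log2 -0.70 to -0.24; 0 called by edgeR, 4 at an unadjusted p under 0.05) and with KMT2D siRNA (-0.17 to -0.12). Their sum was 2670 to 4610 CPM with KMT2C siRNA and 5810 to 6380 CPM with KMT2D siRNA in SUIT2, against 6540 CPM with Control siRNA. The COLO357 sums were 3580 to 4000 CPM with KMT2C and 3820 to 4660 CPM with KMT2D siRNA, against 4640 CPM, and the PANC1 sums 811 to 1200 CPM and 830 to 1120 CPM, against 1140 CPM. Their part in the results was not tested. Leukocyte markers were at or near 0 except LYZ in SUIT2 (2.33 to 8.3 CPM), and fibroblast markers were at most 1.84 CPM except COL1A1, which reached 148 CPM in COLO357 and 179 CPM in PANC1.

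TP63, which encodes the p53 relative p63, differed widely between the lines, with 40.1 to 104 CPM in COLO357 and at most 0.308 CPM in SUIT2 and PANC1.

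Few of the p53 targets were called with either siRNA target. With KMT2D siRNA, 1 of the 33 was called against control at an adjusted p under 0.05 (edgeR's quasi-likelihood test, adjusted over all genes), where 1.2% of all genes were called. Unadjusted p was under 0.05 for 4 members, against 12.6% of all genes. The median log2 fold change was 0.07 over the 33 members and 0.02 over all genes tested. Above 0 were 20 members and 10926 of the 21028 genes tested. With KMT2C siRNA, 0 of the 33 were called by edgeR or by DESeq2 (0.281% of all genes by edgeR), 4 had an unadjusted p under 0.05 (9.18% of all genes) and the median was -0.10, against 0 for all genes. The member called with KMT2D siRNA was GADD45A, a stress-induced growth arrest gene.

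**Figure D1:**
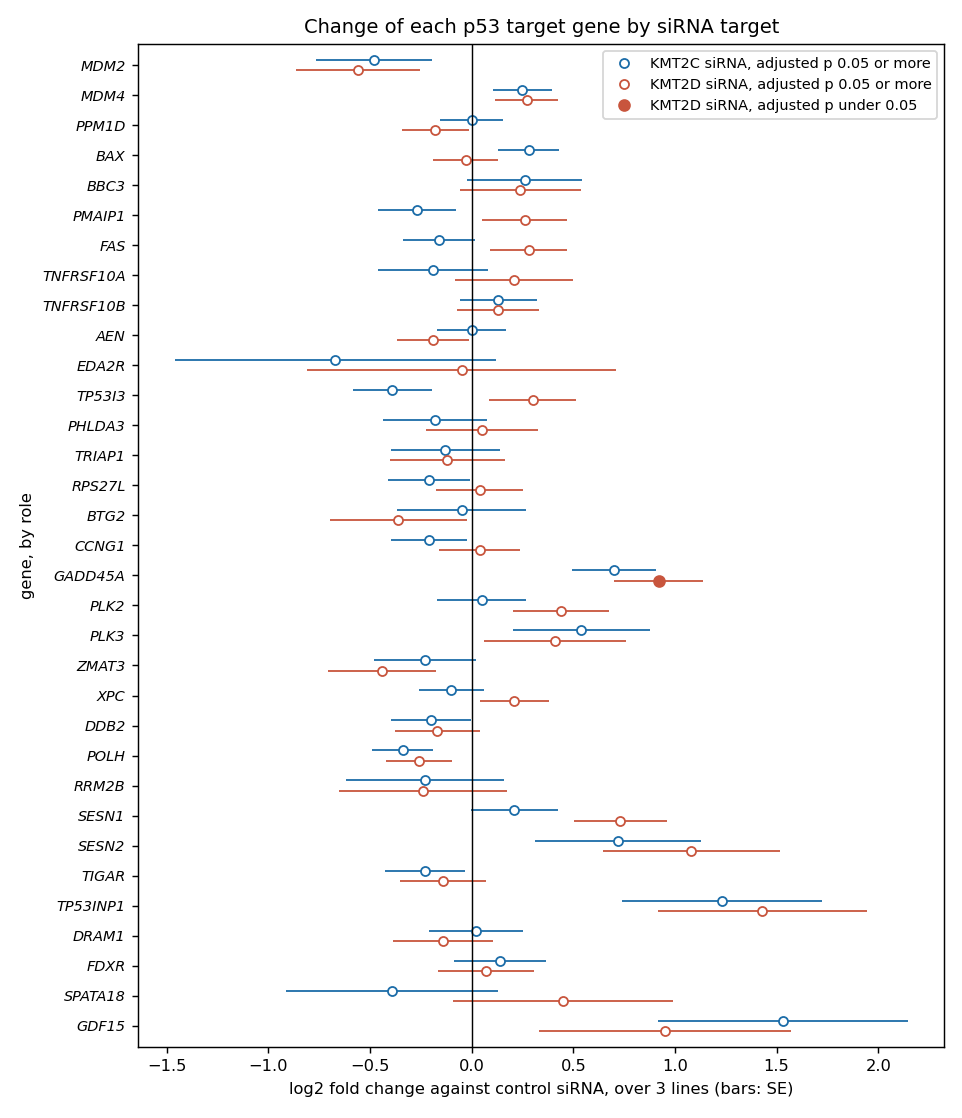
Log2 fold change (x axis) of each of the 33 p53 target genes (y axis, ordered by role) with KMT2C siRNA (blue) and KMT2D siRNA (red) against Control siRNA, from the fit over 3 lines; bars are SE and filled points passed an adjusted p under 0.05. GADD45A with KMT2D siRNA, at 0.92, is the filled point, and MDM2 lies left of 0 for both targets without passing the test.

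GADD45A was above its line's control in all 15 siRNA libraries, which held for 1.38% of all genes (3.72% for all 9 KMT2C libraries and 7.1% for all 6 KMT2D libraries). In COLO357 it had 36.9, 26.5 and 42.9 CPM with KMT2C siRNA1, siRNA2 and siRNA3 and 33.1 and 27.1 CPM with KMT2D siRNA1 and siRNA2, against 15.9 CPM with Control siRNA. In SUIT2 the KMT2C libraries had 46.6, 42.5 and 46.8 CPM and the KMT2D libraries 54.3 and 84.2 CPM, against 31.1 CPM in the control. In PANC1 they had 33.4, 48.9 and 33.7 CPM and 43.5 and 49.9 CPM, against 29.2 CPM. The control was thus the lowest library of every line. GADD45A rose 1.89-fold with KMT2D siRNA (log2 0.92, SE 0.218, adjusted p = 0.0378), and with KMT2C siRNA the log2 fold change was 0.70 (SE 0.206, adjusted p = 0.24). With a random term for the siRNA (limma, estimated correlation 0.211) the KMT2D value was 0.89 and was not called (adjusted p = 0.21 with that correlation). Leaving out any single library kept the log2 fold change between 0.77 and 1.07, but the call ended without 6 of them: without the control of SUIT2, COLO357 or PANC1 the adjusted p was 0.259, 0.202 or 0.0898, and without SUIT2 KMT2D siRNA2, PANC1 KMT2D siRNA2 or PANC1 KMT2D siRNA1 it was 0.0631, 0.0602 or 0.053.

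Each siRNA was also compared on its own. Against control, KMT2C siRNA1 changed 0 of the 33 (1.2% of all genes called; 6 members and 11.2% of genes at an unadjusted p under 0.05; 0 members by DESeq2), KMT2C siRNA2 changed 3 (5.81% of all genes) and KMT2C siRNA3 changed 1 (0.623%). KMT2D siRNA1 changed 3 (4.02% of all genes) and KMT2D siRNA2 changed 4 (8.92%). These siRNA comparisons share the control libraries. The siRNAs of one target were then tested against each other, a test chosen after the values were seen. KMT2D siRNA1 and siRNA2 differed in 8 of the 33 (11.3% of all genes), KMT2C siRNA1 and siRNA2 in 4 (5.04%), KMT2C siRNA1 and siRNA3 in 1 (0.209%) and KMT2C siRNA2 and siRNA3 in 2 (2.73%). In these bulk libraries fewer cells with a transcript and less of it per cell cannot be told apart.

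**Figure D2:**
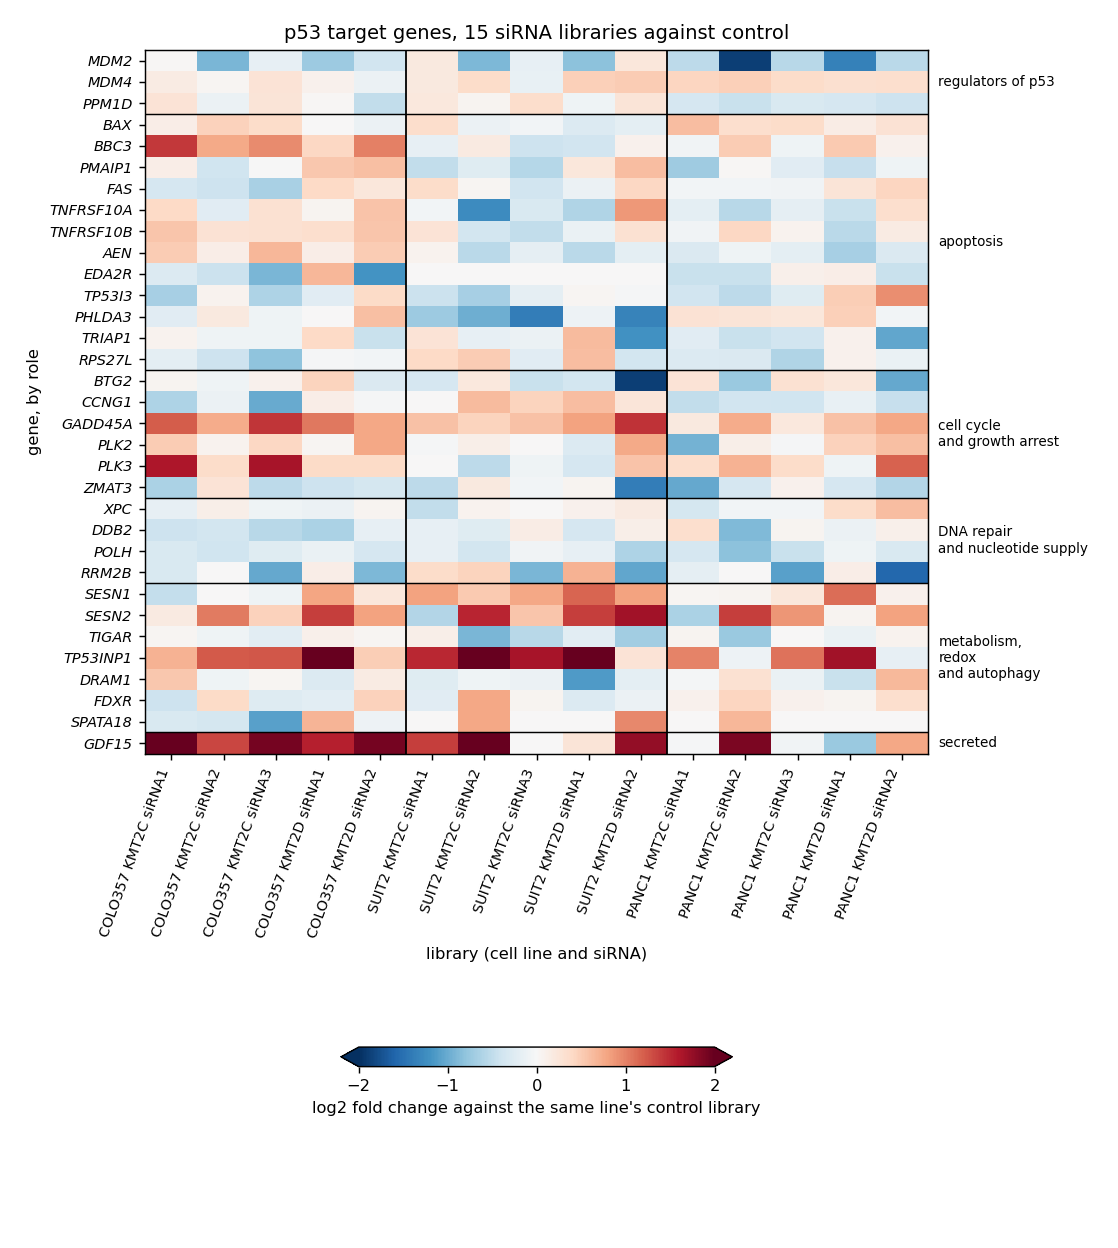
Log2 fold change of the 33 p53 target genes (rows, by role) in each of the 15 siRNA libraries (columns, by line) relative to that line's control, on a colour scale that ends at 2 in either direction. The row of GADD45A is above control in all 15 libraries, and the rows of MDM2 and RRM2B alternate with the siRNA rather than with its target.

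MDM2, the ubiquitin ligase that degrades p53, was lowest with the same siRNA of each target in every line. In COLO357 it had 136, 71 and 119 CPM with KMT2C siRNA1, siRNA2 and siRNA3 and 80.2 and 102 CPM with KMT2D siRNA1 and siRNA2, against 133 CPM in the control. In SUIT2 the KMT2C libraries had 152, 71.8 and 120 CPM and the KMT2D libraries 75.9 and 157 CPM, against 134 CPM. In PANC1 they had 189, 72.9 and 183 CPM and 106 and 186 CPM, against 271 CPM. KMT2C siRNA2 and KMT2D siRNA1 were the 2 lowest libraries of each line. MDM2 fell 2.36-fold with KMT2C siRNA2 (log2 -1.24, SE 0.176, adjusted p = 7.77e-05) and 1.98-fold with KMT2D siRNA1 (log2 -0.99, SE 0.175, adjusted p = 0.00127). Between siRNAs, MDM2 was 1.68-fold lower with KMT2D siRNA1 than with siRNA2 (adjusted p = 0.00567), 2.17-fold higher with KMT2C siRNA1 than with siRNA2 (adjusted p = 0.000283) and 1.90-fold lower with KMT2C siRNA2 than with siRNA3 (adjusted p = 0.00282). Leaving out any single library ended none of these MDM2 calls. Without the 4 libraries in doubt, 1 library with KMT2C siRNA2 remained and MDM2 was at -0.97 against control (adjusted p = 0.179). The differences between KMT2C siRNAs were then 0.85 for siRNA1 against siRNA2 (adjusted p = 0.311) and -0.64 for siRNA2 against siRNA3 (adjusted p = 1 in edgeR).

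The other regulators of p53 did not pass the test in any siRNA comparison. MDM4, an MDM2 relative that inhibits p53, was above control in 8 of 9 KMT2C and 5 of 6 KMT2D libraries, with log2 fold changes of 0.25 (SE 0.144) and 0.27 (SE 0.153). PPM1D, a phosphatase that removes activating phosphates from p53, was at 0 with KMT2C siRNA and -0.18 with KMT2D siRNA. Genes on the opposite strand cover 6.9% of the MDM2 exon length, and whether the counting used strand is not stated.

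Of the 12 apoptosis genes, 0 were called against control for either target (0 at an unadjusted p under 0.05 in edgeR), and 2 were lower with KMT2C siRNA than with KMT2D siRNA. Over all 33 members that comparison called the same 2, both lower, where 5.17% of all genes were called and 2.72% were called lower. TP53I3, an oxidoreductase, had 12, 20.2 and 12.6 CPM with KMT2C siRNA1, siRNA2 and siRNA3 in COLO357, against 16.5 and 25.2 CPM with KMT2D siRNA1 and siRNA2. In SUIT2 it had 10.3, 8.73 and 12.3 CPM against 14.3 and 13.7 CPM, and in PANC1 24.5, 22.4 and 27.3 CPM against 45.4 and 61.6 CPM. The groups overlapped in COLO357 and were separate in SUIT2 and PANC1. The control libraries had 19.2 CPM in COLO357, 13.9 CPM in SUIT2 and 32.2 CPM in PANC1. Against control TP53I3 was at log2 -0.39 with KMT2C siRNA and 0.30 with KMT2D siRNA, neither of them called. TP53I3 was 1.61-fold lower with KMT2C than with KMT2D siRNA (log2 -0.68, SE 0.157, adjusted p = 0.0155). No single library left out ended this call (adjusted p at most 0.0423), but with a random term for the siRNA (limma) it was lost, at -0.72 (adjusted p = 0.0612 with an estimated correlation).

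PMAIP1 encodes NOXA, which blocks survival proteins of the BCL2 family. In COLO357 it had 30.5, 21.1 and 27.7 CPM with the KMT2C siRNAs, against 40.6 and 42.2 CPM with the KMT2D siRNAs, in SUIT2 23.8, 28.3 and 22.6 CPM against 39.1 and 51.5 CPM, and in PANC1 9.29, 15.5 and 13 CPM against 11.1 and 14.4 CPM. The groups were separate in COLO357 and SUIT2 and overlapped in PANC1. The control libraries had 27.9 CPM in COLO357, 33.6 CPM in SUIT2 and 15.3 CPM in PANC1. Against control PMAIP1 was at log2 -0.27 with KMT2C siRNA and 0.26 with KMT2D siRNA, neither of them called. PMAIP1 was 1.44-fold lower with KMT2C than with KMT2D siRNA (log2 -0.53, SE 0.153, adjusted p = 0.0457), and was at -0.58 with the random siRNA term in limma (adjusted p = 0.115 with an estimated correlation). The call ended without any one of 13 of the 18 libraries (adjusted p 0.0539 to 0.109) and was kept without PANC1 KMT2D siRNA1, PANC1 KMT2D siRNA2, PANC1 KMT2C siRNA2, PANC1 KMT2C siRNA3 or COLO357 KMT2C siRNA1 (0.0217 to 0.0497). Without the 4 libraries in doubt neither gene was called, with log2 values of -0.65 for TP53I3 (adjusted p = 0.0913) and -0.59 for PMAIP1 (adjusted p = 0.107). The death receptor gene FAS was at -0.45 in the same comparison (SE 0.14, adjusted p = 0.0641).

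TRIAP1, which encodes a small inhibitor of apoptosis, separated the KMT2D siRNAs. It had 34.4 CPM with siRNA1 and 19.2 CPM with siRNA2 in COLO357 against 26.1 CPM in the control, 35.2 and 9.82 CPM in SUIT2 against 22.8 CPM, and 31.7 and 14.4 CPM in PANC1 against 29.7 CPM. In every line KMT2D siRNA1 was the highest and KMT2D siRNA2 the lowest of the 6 libraries. TRIAP1 fell 1.84-fold with KMT2D siRNA2 (log2 -0.88, SE 0.183, adjusted p = 0.00304), while KMT2D siRNA1 was at 0.37 (adjusted p = 0.284). Between these siRNAs TRIAP1 differed 2.38-fold, higher with siRNA1 (log2 1.25, SE 0.184, adjusted p = 7.17e-05). With the 3 KMT2C siRNAs TRIAP1 stayed between 20.3 and 27.6 CPM.

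TNFRSF10A, the death receptor for the ligand TRAIL, was 1.94-fold lower with KMT2D siRNA1 than with siRNA2 (log2 -0.96, SE 0.198, adjusted p = 0.00219). Its level was 55.7 against 80.2 CPM in COLO357, 36.7 against 102 CPM in SUIT2 and 20.9 against 36 CPM in PANC1. It was also 1.62-fold higher with KMT2C siRNA1 than with siRNA2 (adjusted p = 0.0414), a call that ended without any one of 7 libraries (adjusted p 0.0511 to 0.276), the lowest and highest of these without PANC1 KMT2C siRNA2 and SUIT2 KMT2C siRNA2. The others were PANC1 KMT2C siRNA1 and siRNA3, COLO357 KMT2C siRNA1, and SUIT2 KMT2C siRNA1 and siRNA3. Without the 4 libraries in doubt it was at 0.44 (adjusted p = 0.79). Genes on the opposite strand cover 16.6% of the TNFRSF10A exon length. The remaining apoptosis genes, BAX and BBC3 (pore-forming and BH3-only proteins of the BCL2 family), TNFRSF10B, AEN, EDA2R, PHLDA3 and RPS27L, passed no siRNA test, and their log2 fold changes over a target lay between -0.67 (EDA2R with KMT2C siRNA) and 0.28. BAX had the smallest p of these with KMT2C siRNA, at 0.28 (SE 0.151, adjusted p = 0.6), from 14.1, 17.6 and 16.6 CPM in COLO357 against 12.8 CPM, 30.6, 22.1 and 23.1 CPM in SUIT2 against 24.1 CPM, and 39.1, 31.9 and 33 CPM in PANC1 against 25.5 CPM.

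Among the 6 genes of cell cycle and growth arrest GADD45A, described above, was also called with KMT2D siRNA2 alone (2.04-fold higher, log2 1.03, SE 0.233, adjusted p = 0.00656). Without SUIT2 KMT2D siRNA2 its adjusted p was 0.0703. BTG2, an antiproliferative gene, was 2.11-fold higher with KMT2D siRNA1 than with siRNA2 (log2 1.08, SE 0.325, adjusted p = 0.0318). It had 15.1 against 9.02 CPM in COLO357, 4.49 against 1.5 CPM in SUIT2 and 0.636 against 0.213 CPM in PANC1. That call ended without COLO357 KMT2D siRNA1 (adjusted p = 0.153), either KMT2D library of SUIT2 (0.0522 and 0.238) or of PANC1 (0.0613 and 0.0745). Without COLO357 KMT2D siRNA2 the BTG2 difference was 1.80 (adjusted p = 0.00316 in edgeR). PLK2, a stress-responsive kinase, had 261 and 436 CPM with the KMT2D siRNAs in COLO357 against 254 CPM in the control, 140 and 286 CPM in SUIT2 against 169 CPM, and 247 and 271 CPM in PANC1 against 179 CPM, with no call (0.44, adjusted p = 0.455). The kinase PLK3, the cyclin CCNG1 and the RNA-binding protein ZMAT3 were not called either, with log2 fold changes between -0.44 and 0.54 over both targets.

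RRM2B, the p53-inducible subunit of ribonucleotide reductase that supplies nucleotides for repair, had the lowest adjusted p of any member between siRNAs. In COLO357 it had 42, 51.5 and 25.4 CPM with KMT2C siRNA1, siRNA2 and siRNA3 and 56.9 and 27.7 CPM with KMT2D siRNA1 and siRNA2, against 51.7 CPM in the control. In SUIT2 the values were 61.2, 64 and 25.1 CPM and 76.9 and 23 CPM, against 47.3 CPM, and in PANC1 98.5, 112 and 52.5 CPM and 123 and 37.5 CPM, against 112 CPM. KMT2C siRNA3 and KMT2D siRNA2 were the 2 lowest libraries in each line. RRM2B fell 2.02-fold with KMT2C siRNA3 (log2 -1.02, SE 0.171, adjusted p = 0.00269) and 2.24-fold with KMT2D siRNA2 (log2 -1.16, SE 0.171, adjusted p = 9.87e-05). It was 2.80-fold higher with KMT2D siRNA1 than with siRNA2 (adjusted p = 4.74e-06), 2.23-fold higher with KMT2C siRNA2 than with siRNA3 (adjusted p = 0.000211) and 1.97-fold higher with KMT2C siRNA1 than with siRNA3 (adjusted p = 0.0115). The last of these ended without PANC1 or SUIT2 KMT2C siRNA1 (adjusted p = 0.101 and 0.162) and without PANC1 or SUIT2 KMT2C siRNA3 (0.0796 and 0.171). Without the 4 libraries in doubt, 1 library with KMT2C siRNA3 remained and RRM2B was at -0.94 against control (adjusted p = 0.688), and at 0.89 and 0.97 for KMT2C siRNA1 and siRNA2 against siRNA3 (adjusted p = 1 in edgeR for both).

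**Figure D3:**
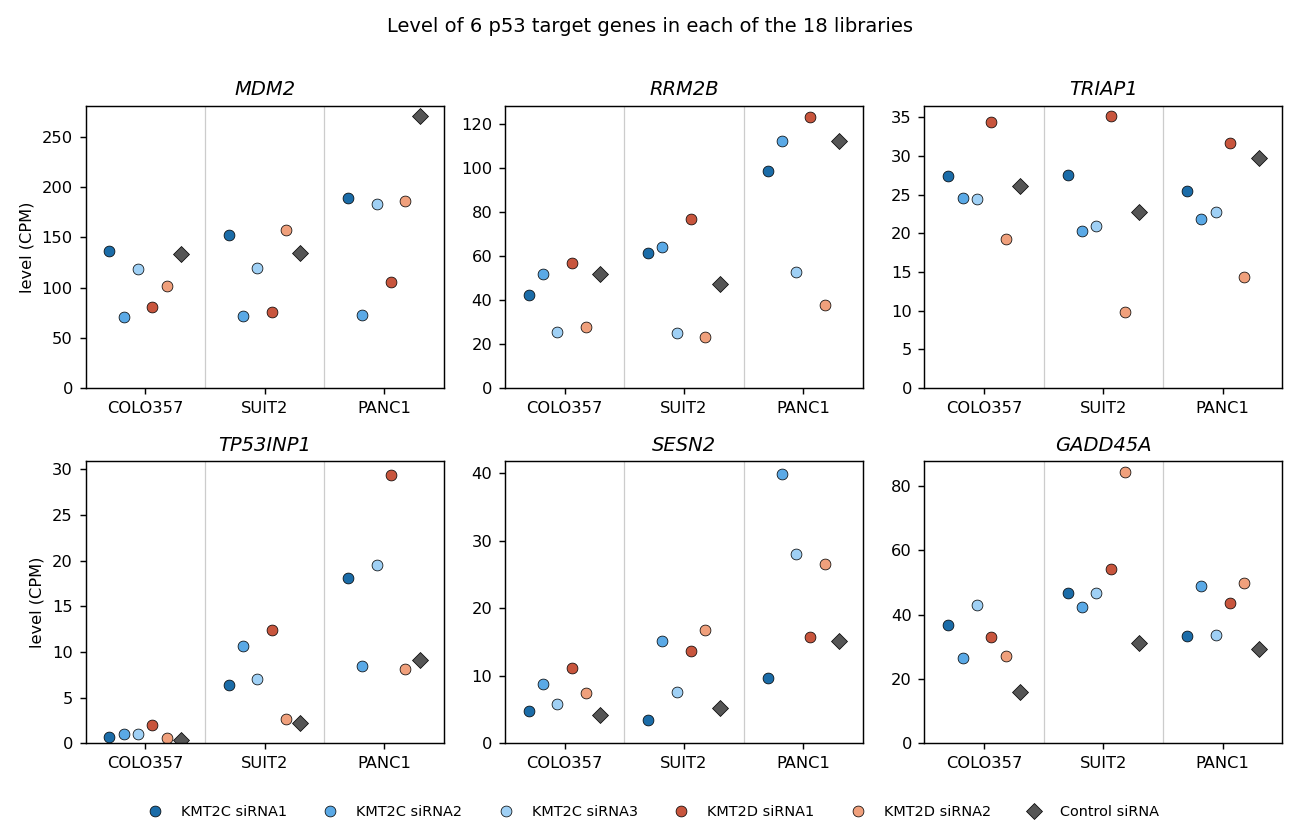
Level in CPM (y axis, from 0) of 6 p53 target genes in each of the 18 libraries, by line (x axis), with KMT2C siRNAs in blues, KMT2D siRNAs in reds and the control as a grey diamond. MDM2 is lowest with KMT2C siRNA2 and KMT2D siRNA1 in each line, RRM2B with KMT2C siRNA3 and KMT2D siRNA2, and the GADD45A control is the lowest point of each line.

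POLH, the polymerase that copies past ultraviolet lesions, was below control in all 9 KMT2C libraries (3.27% of all genes) and all 6 KMT2D libraries (6.33%). It had 14.7, 13.8 and 15.3 CPM with the KMT2C siRNAs and 16.7 and 14.5 CPM with the KMT2D siRNAs in COLO357 against 18.2 CPM, 30.8, 26.6 and 32.7 CPM and 30.8 and 22.3 CPM in SUIT2 against 34.3 CPM, and 48.9, 34.7 and 45.4 CPM and 58.3 and 49.5 CPM in PANC1 against 61.5 CPM. The differences were small and not called, at -0.34 with KMT2C siRNA (SE 0.152, adjusted p = 0.504) and -0.26 with KMT2D siRNA (SE 0.163, adjusted p = 0.553). The nucleotide excision repair genes XPC and DDB2 were between -0.20 and 0.21 for both targets and were not called. Genes on the opposite strand cover 30.4% of the XPC exon length.

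Of the 7 metabolic and autophagy targets, TP53INP1, SESN1 and SESN2 were called with at least 1 siRNA against control. A single siRNA called 0.623% to 8.92% of all genes, and the share called with at least 1 was not taken. TP53INP1, which promotes autophagy and p53 phosphorylation, was above control in 8 of 9 KMT2C and 5 of 6 KMT2D libraries. In COLO357, where it was low, it had 0.672, 1 and 1.02 CPM with the KMT2C siRNAs and 2.02 and 0.569 CPM with the KMT2D siRNAs, against 0.377 CPM in the control. In SUIT2 it had 6.33, 10.7 and 7.03 CPM and 12.4 and 2.64 CPM, against 2.18 CPM, and in PANC1 18.1, 8.49 and 19.5 CPM and 29.4 and 8.09 CPM, against 9.09 CPM. KMT2D siRNA1 gave the highest level in each line. TP53INP1 rose 4.25-fold with KMT2D siRNA1 (log2 2.09, SE 0.327, adjusted p = 0.000428), a call that no single library ended, and was 4.01-fold higher with it than with KMT2D siRNA2 (adjusted p = 0.000239). It rose 2.30-fold with KMT2C siRNA2 (log2 1.20, SE 0.336, adjusted p = 0.0335), which ended without SUIT2 KMT2C siRNA2 (log2 0.51, adjusted p = 0.495), the SUIT2 control (0.221), the COLO357 control (0.0605), COLO357 KMT2C siRNA2 (0.059) or PANC1 KMT2C siRNA3 (0.0501), and without the 4 libraries in doubt (log2 1.26, adjusted p = 0.434). Over each target TP53INP1 was not called, at 1.23 with KMT2C siRNA (SE 0.493, adjusted p = 0.452) and 1.43 with KMT2D siRNA (SE 0.515, adjusted p = 0.231).

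SESN1 and SESN2 encode sestrins, which restrain mTORC1 and oxidative damage, and both were above control in all 6 KMT2D libraries, as were 7.1% of all genes. SESN1 had 10.8 and 7.31 CPM with KMT2D siRNA1 and siRNA2 in COLO357 against 6.22 CPM in the control, 16 and 12.4 CPM in SUIT2 against 7.05 CPM, and 33.8 and 16.4 CPM in PANC1 against 15.5 CPM. It rose 2.03-fold with KMT2D siRNA1 (log2 1.02, SE 0.21, adjusted p = 0.00482), which ended without PANC1 KMT2D siRNA1 (adjusted p = 0.0503) or the SUIT2 control (0.0629). SESN1 was 1.58-fold higher with KMT2D siRNA1 than with siRNA2 (adjusted p = 0.0396), a call that ended without any one of 8 libraries (PANC1 and SUIT2 KMT2D siRNA1 and siRNA2, COLO357 KMT2D siRNA1, PANC1 KMT2C siRNA1 and siRNA3, and SUIT2 KMT2C siRNA3; adjusted p 0.05 to 0.187) and without the 4 libraries in doubt (log2 0.65, adjusted p = 0.0812). Over both KMT2D siRNAs SESN1 was at 0.73 (SE 0.229, adjusted p = 0.137). A gene on the opposite strand covers 7.1% of its exon length.

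SESN2 had 4.76, 8.72 and 5.82 CPM with the KMT2C siRNAs and 11.2 and 7.4 CPM with the KMT2D siRNAs in COLO357, against 4.2 CPM in the control. In SUIT2 it had 3.42, 15.2 and 7.66 CPM and 13.7 and 16.8 CPM, against 5.18 CPM, and in PANC1 9.74, 39.9 and 28 CPM and 15.7 and 26.5 CPM, against 15.2 CPM. KMT2C siRNA2 gave the highest level of the 3 KMT2C siRNAs in each line and KMT2C siRNA1 the lowest. SESN2 rose 2.53-fold with KMT2C siRNA2 (log2 1.34, SE 0.298, adjusted p = 0.00809), which ended without PANC1 KMT2C siRNA2 (adjusted p = 0.0707), the SUIT2 control (0.0579) or the 4 libraries in doubt (log2 0.86, adjusted p = 0.671). It rose 2.18-fold with KMT2D siRNA2 (log2 1.13, SE 0.298, adjusted p = 0.0191), which ended without SUIT2 KMT2D siRNA2 (0.136), the SUIT2 control (0.106) or the COLO357 control (0.0633). SESN2 was 3.19-fold lower with KMT2C siRNA1 than with siRNA2 (adjusted p = 0.0021), and at -1.22 without the 4 libraries in doubt (adjusted p = 0.42). Over both KMT2D siRNAs it was at 1.08 (SE 0.434, adjusted p = 0.295).

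DRAM1, a lysosomal membrane protein that promotes autophagy, was 1.79-fold lower with KMT2D siRNA1 than with siRNA2 (log2 -0.84, SE 0.218, adjusted p = 0.0129), with 11 against 14.9 CPM in COLO357, 8.34 against 16 CPM in SUIT2 and 9.72 against 21 CPM in PANC1. The call ended without SUIT2 KMT2D siRNA1 (adjusted p = 0.11) or PANC1 KMT2D siRNA2 (0.117). FDXR, a mitochondrial ferredoxin reductase, was 1.65-fold lower with KMT2C siRNA1 than with siRNA2 (log2 -0.72, SE 0.204, adjusted p = 0.0409), with 15.2 against 26.5 CPM in COLO357, 5.55 against 11.1 CPM in SUIT2 and 7.93 against 10.1 CPM in PANC1. This call ended without any one of 6 libraries: KMT2C siRNA1 or siRNA2 of COLO357 or SUIT2, and PANC1 KMT2C siRNA1 or siRNA3 (adjusted p 0.0528 to 0.231). Without the 4 libraries in doubt FDXR was at -0.60 (adjusted p = 0.692). None of the differences between KMT2C siRNAs named here was called then, with 1 library each of siRNA2 and siRNA3 left. TIGAR, which lowers glycolytic flux, and SPATA18, which acts in mitochondrial quality control, were not called in any siRNA comparison, with log2 fold changes of -0.23 and -0.39 with KMT2C siRNA and -0.14 and 0.45 with KMT2D siRNA. TIGAR shares 42.6% of its exon length with a gene on the same strand, so its counts are uncertain.

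GDF15, a secreted cytokine of the TGF-beta family, had the largest change of the members with KMT2C siRNA and did not pass the test. It had 72.4, 17.3 and 26 CPM with the KMT2C siRNAs in COLO357 and 20.3 and 26.2 CPM with the KMT2D siRNAs, against 6.84 CPM in the control. In SUIT2 it had 9.17, 17.2 and 3.45 CPM and 4.11 and 11.9 CPM, against 3.46 CPM, and in PANC1 34, 128 and 33 CPM and 20.6 and 59.2 CPM, against 34.6 CPM. All 5 siRNA libraries lay above control in COLO357. In SUIT2 KMT2C siRNA3 was level with the control (log2 fold change 0), and the others lay above it. In PANC1 KMT2C siRNA1, KMT2C siRNA3 and KMT2D siRNA1 lay below control, at -0.02, -0.07 and -0.75. The log2 fold change was 1.53 with KMT2C siRNA (SE 0.615, adjusted p = 0.456) and 0.95 with KMT2D siRNA.

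For each target 0 of 33 members were called in the test of whether its siRNA effect differed between lines by edgeR or DESeq2, where 0% of all genes were called, and 0 had an unadjusted p under 0.05 (2.23% of all genes for KMT2C siRNA and 2.26% for KMT2D siRNA). The lowest unadjusted p was 0.116 for CCNG1 with KMT2C siRNA and 0.188 for AEN with KMT2D siRNA (adjusted p = 1 in edgeR for both). This test had little power, since in simulated counts it recovered 41% of genes whose KMT2D effect differed 4-fold and 1% of those that differed 2-fold. The simulated counts varied less than the measured ones (coefficient of variation 0.253 in this fit) and had no correlation within siRNA added. Recovery in the measured data may thus be lower.

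The lines differed in the level of most members, and also of most genes tested. Between COLO357 and PANC1, 27 of 33 members were called, 15 higher and 12 lower in COLO357 (66.8% of all genes called, 34.7% higher and 32.1% lower). Between SUIT2 and PANC1, 21 were called, 8 higher and 13 lower in SUIT2 (59.3% of all genes, 29.5% higher and 29.8% lower), and between COLO357 and SUIT2, 22 were called, 12 higher and 10 lower in COLO357 (59.7% of all genes, 30.9% higher and 28.8% lower). The levels below are the lowest, median and highest CPM of the 6 libraries of a line, siRNAs and control together. For FAS these were 21.5, 30.4 and 44.6 CPM among COLO357 libraries and 24.7, 32.7 and 43.2 CPM among SUIT2 libraries, against 3.67, 3.79 and 5.24 CPM in PANC1. Its log2 difference from PANC1 was 2.93 in COLO357 (SE 0.166, adjusted p = 4.86e-13) and 3.06 in SUIT2 (SE 0.167, adjusted p = 2.85e-13), with no overlap of either line with PANC1. An 8.9% share of the FAS exon length overlaps ACTA2 on the opposite strand.

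BTG2 had 9.02, 11.3 and 15.1 CPM among COLO357 libraries and 1.5, 4.54 and 6.73 CPM among SUIT2 libraries, against 0.213, 0.581 and 0.675 CPM in PANC1, again without overlap. It was 22.9-fold higher in COLO357 (log2 4.52, SE 0.315, adjusted p = 1.88e-11) and 8.86-fold higher in SUIT2 (log2 3.15, SE 0.312, adjusted p = 9.48e-09) than in PANC1. PHLDA3, an inhibitor of the kinase AKT, had 17.4, 20.3 and 30.8 CPM in COLO357, 0.377, 0.59 and 1.14 CPM in SUIT2 and 3.36, 4.15 and 4.9 CPM in PANC1, in 3 ranges that did not overlap. It was 30.8-fold higher in COLO357 than in SUIT2 (adjusted p = 1.23e-13) and 5.76-fold lower in SUIT2 than in PANC1 (adjusted p = 7.39e-09). A gene on the same strand shares 19.1% of the PHLDA3 exon length. PPM1D had 44.5, 51.8 and 60.2 CPM in SUIT2, against 14.5, 15.6 and 19.7 CPM in PANC1, and was 3.24-fold higher in SUIT2 (adjusted p = 4.19e-10).

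TP53INP1 showed the reverse order, with 0.377, 0.837 and 2.02 CPM in COLO357, 2.18, 6.68 and 12.4 CPM in SUIT2 and 8.09, 13.6 and 29.4 CPM in PANC1. It was 16.8-fold lower in COLO357 than in PANC1 (adjusted p = 9.04e-08) and 7.13-fold lower in COLO357 than in SUIT2 (adjusted p = 1.17e-05). GDF15 had 6.84, 23.1 and 72.4 CPM in COLO357, 3.45, 6.64 and 17.2 CPM in SUIT2 and 20.6, 34.3 and 128 CPM in PANC1. It was 6.50-fold lower in SUIT2 than in PANC1 (adjusted p = 0.000225) and 3.22-fold higher in COLO357 than in SUIT2 (adjusted p = 0.00764). The spread within a line was wide for both genes, and GDF15 was not called between COLO357 and PANC1 (adjusted p = 0.0744).

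SPATA18 and EDA2R, a receptor of the tumour necrosis factor family, had nearly all their reads in COLO357 and passed the filter on low counts through that line. Their place among the members called higher in COLO357 is therefore no support for a difference, and their values are a description. SPATA18 had 319 reads over the 6 COLO357 libraries, against 3 in SUIT2 and 1 in PANC1. Relative to library totals that is 98-fold more than in SUIT2 (exact 95% interval 33.2 to 478) and 374-fold more than in PANC1 (66.6 to 14800), intervals that cover counting error only. EDA2R had 45 reads in COLO357, against 0 in SUIT2 and 3 in PANC1. With SUIT2 set to a floor of 3 reads, EDA2R was 13.8-fold higher in COLO357, a ratio without error on the COLO357 reads. It was 17.6-fold higher in COLO357 than in PANC1 (exact 95% interval 5.64 to 88.4).

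**Figure D4:**
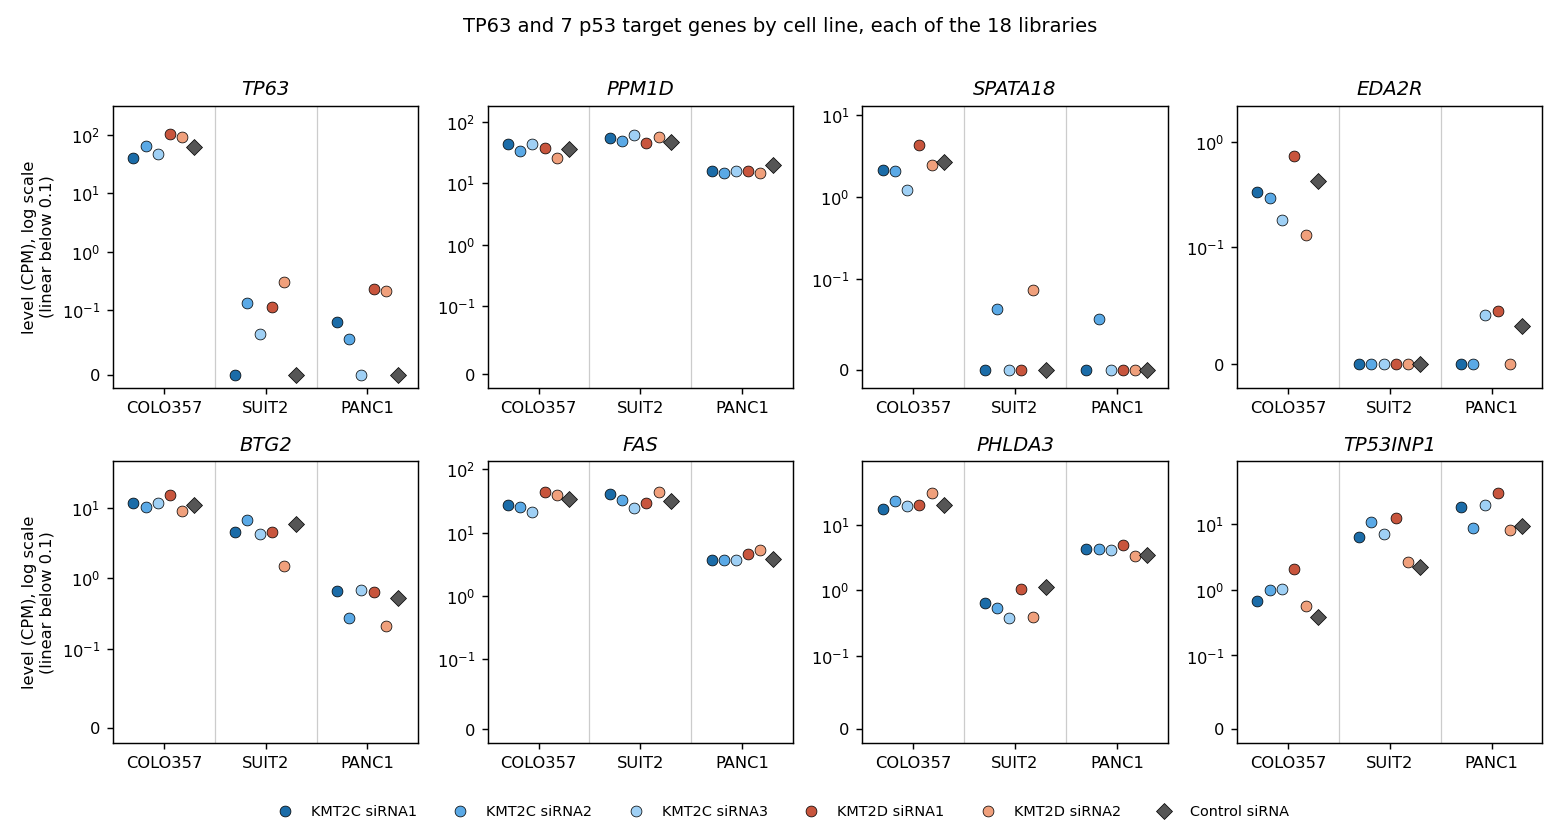
Level in CPM (y axis, log scale, linear below 0.1) of TP63 and 7 p53 target genes in each of the 18 libraries, by line (x axis), with KMT2C siRNAs in blues, KMT2D siRNAs in reds and the control as a grey diamond. TP63 lies between 40.1 and 104 CPM in COLO357 and at 0.308 CPM or less elsewhere, SPATA18 is high in COLO357, and FAS, BTG2 and PPM1D are lowest in PANC1.

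Other genes of the pathway, from lists of 20 regulators, 20 further targets (19 tested), 12 genes repressed through p53 and the DREAM complex and 12 ATF4 stress genes, were called in small numbers against control. With KMT2D siRNA the checkpoint kinase gene CHEK2 fell (log2 -1.02, adjusted p = 0.0316) and the acetyltransferase gene KAT5 rose (0.72, adjusted p = 0.0425) among the regulators. Genes on the opposite strand cover 38.6% of the KAT5 and 6.7% of the CHEK2 exon length. TOP2A, the topoisomerase of dividing cells, fell among the repressed genes (-1.03, adjusted p = 0.03), and 0 of the further targets and 0 of the ATF4 genes were called. At an unadjusted p under 0.05 there were 6 of 20 regulators, 6 of 19 further targets, 3 of 12 repressed genes and 4 of 12 ATF4 genes, against 12.6% of all genes. With KMT2C siRNA 0 of these 4 lists' genes were called against control (edgeR; 6, 4, 0 and 1 at an unadjusted p under 0.05, against 9.18% of all genes).

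CDKN1A, the cell cycle inhibitor p21 and the best-known p53 target outside the 33, was higher with KMT2C than with KMT2D siRNA (log2 0.82, SE 0.191, adjusted p = 0.0175). It had 92, 63.9 and 72.4 CPM in COLO357 against 28 and 54 CPM, 36.3, 20.6 and 18.1 CPM in SUIT2 against 18.6 and 12.6 CPM, and 17.8, 13.5 and 17.6 CPM in PANC1 against 10.6 and 7.11 CPM. Against control it was called with KMT2C siRNA1 alone (1.21, adjusted p = 0.0216). In the same comparison of targets SFN was higher, and KITLG, PERP and TP53TG1 were lower, among the further targets. HIPK2 was higher and TP63 lower among the regulators, and TOP2A and MKI67 were higher among the repressed genes. TP63 had at most 0.308 CPM outside COLO357. With CDKN1A, 5 of 19 further targets were called, 2 of 20 regulators, 2 of 12 repressed genes and 0 of 12 ATF4 genes, against 5.17% of all genes. CDH5, one of 3 endothelial markers, was also higher with KMT2C siRNA (1.93, adjusted p = 0.00977), from COLO357 levels of 27.9, 13.4 and 15.5 CPM against 4.64 and 4.68 CPM, with PECAM1 at 0 in all 18 libraries and VWF at most 0.394 CPM. The 3 endothelial markers summed to 13.8 to 28.2 CPM with KMT2C siRNA in COLO357, against 4.73 to 5.07 CPM with KMT2D siRNA, and to at most 0.194 CPM in SUIT2 and PANC1. The part of this marker in the TP53I3 and PMAIP1 results was not tested. Calls of genes outside the 33 were checked neither with a random siRNA term nor with a library left out. They were also not checked without the 4 libraries in doubt.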

How the data were processed

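RNA was depleted of ribosomal RNA and made into stranded libraries, per the labels' protocols. The deposited values are whole-number counts per Ensembl gene; the submitters' processing notes name FastQC, TopHat2, HTSeq, edgeR and the build hg19, whose versions, and the strand setting used in counting, are not stated there. The 5 HTSeq lines that name no gene (32.98% to 53.39% of listed read pairs) stayed out of library sizes and tests. Genes were kept by edgeR's filterByExpr (minimum count 10, minimum total 15), scaled by TMM (0.946 to 1.06) and tested with edgeR 4.0.16 (R 4.3.3), quasi-likelihood F test and Benjamini-Hochberg adjustment over 21028 genes. Line plus siRNA target, line plus single siRNA, and 9 line-by-target groups were modelled, and SE was taken as |log2 fold change| / sqrt(F). CPM used TMM library sizes, and log2 fold changes of single libraries used a prior count of 2. The tests were run on simulated data. No 2 libraries agreed within sampling noise (chi-square per gene 26.9 to 143 within line and target).

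The members and lists were chosen with earlier results of these data known. The members named in detail are those called in a comparison or with its smallest p-values, and, between lines, the largest changes. Exon overlaps come from GENCODE 29 and promoter windows from RefSeq. Alternatives, examined for the members only, were DESeq2 1.42.0, its size factors, no filter, an siRNA block (fixed, or random with limma 3.58.1) and each library left out. Leaving out the 4 libraries in doubt, and the tests between siRNAs, were chosen after seeing the data. One gene of the pathway is not reported here.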

Additional observations from a re-analysis of the deposited data

Results flagged for a closer look

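Among 158 groups of values examined, 12 held a library far from the others, where chance flags about 1 in 20 groups. Values per library are log2 of CPM plus 0.1 over the 6 libraries of a line. In PANC1, MDM4 was at 5.92 in the control against 6.24 to 6.41 in the others, and PPM1D at 4.31 in the control against 3.87 to 4.0. With PANC1 KMT2C siRNA2, DDB2 was at 3.78 against 4.54 to 5.0 and TIGAR at 3.71 against 4.32 to 4.54. With PANC1 KMT2D siRNA1, SESN1 was at 5.08 against 3.96 to 4.19.

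In SUIT2, FDXR was at 3.49 with KMT2C siRNA2 against 2.45 to 2.78, XPC at 4.84 with KMT2C siRNA1 against 5.35 to 5.52, DRAM1 at 3.08 with KMT2D siRNA1 against 3.96 to 4.2, and BTG2 at 0.68 with KMT2D siRNA2 against 2.13 to 2.77. Among log2 fold changes against the line's control, PHLDA3 was at -1.33 with SUIT2 KMT2D siRNA2 against -0.1 to 0.6 in the other KMT2D libraries. PLK2 was at -0.94 with PANC1 KMT2C siRNA1 against -0.03 to 0.5 in the other KMT2C libraries, and POLH at -0.82 with PANC1 KMT2C siRNA2 against -0.44 to -0.07.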

How the results depend on the processing

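Values are counts of members called. The share of all genes called in each alternative fit was not taken, so these counts cannot be set against it. No result changed sign, and the counts between lines stayed within 1.5 times of their values under the alternatives run. Without the expression filter 4 members were called with KMT2D siRNA, 2 with KMT2C siRNA, 4 between KMT2C and KMT2D siRNA, 5 with KMT2D siRNA1, 10 with KMT2D siRNA2, 3 with KMT2C siRNA1, 6 with KMT2C siRNA2, 3 with KMT2C siRNA3 and 3 between KMT2C siRNA1 and siRNA3. DESeq2 called 3 with KMT2D siRNA, 4 between the targets, 5 with KMT2D siRNA1, 8 with KMT2D siRNA2, 7 with KMT2C siRNA2 and 2 with KMT2C siRNA3. Without the 4 libraries in doubt 0 were called between the targets, with KMT2C siRNA2, with KMT2C siRNA3 and between any KMT2C siRNAs, where 1 library each of siRNA2 and siRNA3 remained, assumed to vary like the others. The cause of these changes was not tested, and the last of these fits also had fewer libraries.

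The siRNA number is shared across lines. Deviations of same-siRNA libraries from the mean of their line and target correlated at 0.0564 to 0.379, and 14 of 15 pairs were over 0.1. The deviations of the KMT2D siRNAs mirror each other, so siRNA1 and siRNA2 gave the same correlations (0.283, 0.379 and 0.29), which are counted for both. The rule used, that every pair be over 0.1, was missed by 1 pair, so the block stayed an alternative. With the replicate block as a fixed term in edgeR 5 members were called with KMT2D siRNA, 2 with KMT2C siRNA and 5 between the targets. Those with KMT2D siRNA were GADD45A (adjusted p = 0.0107), MDM2 (0.0136), SESN2 (0.0207), SESN1 (0.0287) and TP53INP1 (0.0317). TP53I3 (0.00263) and PMAIP1 (0.0142) kept their calls between the targets. The counts between lines were 28, 22 and 23 (COLO357 against PANC1, SUIT2 against PANC1, COLO357 against SUIT2). A fixed block leaves the difference between siRNAs of a target out of the spread. As a random block in limma (correlation 0.211) the counts were 0 with KMT2D siRNA, 0 between the targets, and 28, 21 and 22 between lines.

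Leaving out each library in turn gave 0 to 1 with KMT2D siRNA, 0 with KMT2C siRNA, 1 to 3 between the targets, 24 to 27, 20 to 22 and 21 to 23 between lines, 2 to 5 with KMT2D siRNA1, 2 to 8 with KMT2D siRNA2, 0 to 1 with KMT2C siRNA1, 1 to 5 with KMT2C siRNA2 and 1 to 2 with KMT2C siRNA3. Between siRNAs it gave 5 to 9 for KMT2D siRNA1 against siRNA2, 2 to 6 for KMT2C siRNA1 against siRNA2, 0 to 1 for siRNA1 against siRNA3 and 2 for siRNA2 against siRNA3. Single libraries moved these counts by over 1.5 times as follows. Without SUIT2 KMT2D siRNA2 the count was 5 with KMT2D siRNA1, 2 with KMT2D siRNA2, 1 with KMT2C siRNA1 and 5 with KMT2C siRNA2. Without PANC1 KMT2C siRNA2 it was 7 with KMT2D siRNA2, 1 with KMT2C siRNA1 and 2 with KMT2C siRNA3, and without SUIT2 KMT2C siRNA2 it was 1 and 2 with KMT2C siRNA1 and siRNA3. It was 5 with KMT2D siRNA1 without COLO357 KMT2C siRNA1, 8 with KMT2D siRNA2 without COLO357 KMT2D siRNA2, 5 with KMT2C siRNA2 without COLO357 KMT2C siRNA2 and 1 without the SUIT2 control. Between KMT2D siRNAs it was 5 without PANC1 KMT2D siRNA2 or SUIT2 KMT2D siRNA1. The lower counts between targets and between KMT2C siRNAs come with the PMAIP1, TNFRSF10A, FDXR and RRM2B calls described above. For the test of whether a siRNA effect differs between lines every such fit gave 0, over 15 settings, since a control could not be left out there. With 1 control library per line, each comparison with control rests on 3 libraries.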
